A study of Mus musculus with 2 samples.

Results

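The skeletal myogenic transcription factors are the 4 muscle regulatory factors Myod1, Myf5, Myf6 and Myog, the paired-box factors Pax3 and Pax7, and the MEF2 factors Mef2a, Mef2c and Mef2d. They were chosen by gene name, through the symbol that the platform annotation gives for each probe set. Of the 9 genes, 8 were represented, by 12 probe sets, out of 8251 genes named on the array. No probe set was named for Pax7, so its level is not analysed here. They were measured in 2 mouse mesoangioblast clones, D16 and D351, with 1 Affymetrix U74A array of total RNA for each. Mesoangioblasts are vessel-associated progenitors that can give rise to several mesodermal tissues. Both clones were derived in the same way, and the labels name no treatment that differs between them: explants of dorsal aorta, from C57BL6 embryos of embryonic day 9.5, were cultured for 5 days, and their cells were cloned by limiting dilution over embryonic fibroblasts arrested with Mitomycin C, in RPMI with 20% fetal calf serum, then expanded on gelatin. Each group is therefore 1 clone with 1 array, so no difference has a replicate check or a test, and each is a size measured between a pair of arrays.

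In the embryo, Pax3 and Pax7 mark the premyogenic cells of the somite, and Pax7 later marks the satellite cells of adult muscle. Myf5 and Myod1 commit cells to the skeletal muscle fate, and Myog and Myf6 act later, during differentiation. These 4 are basic helix-loop-helix proteins, which bind the E-box, a short DNA motif, as dimers with E proteins, and which Id proteins inhibit by capturing the E proteins. MEF2 factors are MADS-box proteins that bind an AT-rich motif and activate muscle genes together with the muscle regulatory factors. They are also present in many other tissues, and kinases, calcineurin and class II histone deacetylases control their activity.

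The values are intensities in arbitrary units, scaled so that both arrays had the same median over probe sets above the floor. The floor, an intensity of 17.4, was the 40th percentile of the scaled values, and was used as the limit below which a level was not read. In D16, 60.6% of the non-control probe sets reached it, and in D351 59.4%. A ratio with 1 clone below the floor is given as a lower bound (at least N-fold), and none is given where both clones are below. No detection call was used, so the levels of genes made in unrelated tissues (retina, pancreas, germ cells, lymphocytes, pituitary and others) serve as a measure of background: of 35 such genes on the array, 12 reached the floor in each clone, and their highest intensities were 123 in D16 (Ctrb1, a pancreatic protease) and 97.2 in D351 (Tnp1, a sperm chromatin protein whose other probe set lay below the floor). Gh, a pituitary hormone gene, measured 115 in D16 and 70.2 in D351. Different probe sets respond differently, so intensities compare a probe set between the clones and not genes with each other. The spread of log2 ratios between probe sets of the same gene had an SD of 0.52 (808 genes), the part of the error that could be measured. In bulk RNA, fewer cells of a type and less RNA per cell cannot be told apart.

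Mef2d and Mef2a stood furthest above the floor, and both had higher levels in D351. Myod1 had nearly the same low level in both clones. Myog, Myf6 and Pax3 lay just above the floor in D16 and below it in D351, and Myf5 and Mef2c lay below it in both. Of the 6 members with a ratio, the 3 read in both clones were less than 2-fold apart, and the other 3 have lower bounds under 2-fold, which set no upper limit to their ratios. Of the members, 0 were thus counted at 2-fold, where 10.6% of the 6101 genes compared were 2-fold or more higher in D351 and 8.83% in D16. At 1.5-fold, 2 members, Mef2a and Mef2d, were higher in D351 and 0 in D16, against 21.1% and 21% of the genes. The median log2 ratio of the 6 members, 3 of them at their bounds, was -0.03, as was that of all genes. The members with a ratio changed with the setting, so their medians are not over the same genes. With the floor at the 25th percentile, where Mef2c gained a ratio, the median was -0.56. With it at the 60th, where only Mef2a and Mef2d had a ratio, it was 0.76. Under the hybridization control scaling, which sets equal the control transcripts added to both hybridizations, it was 0.49, without Myf6. Both clones reached the floor for 3 of the 8 members, against 63% of all genes, D16 alone for another 3, against 5.89%, and D351 alone for 0, against 5.01%.

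**Figure D1:**
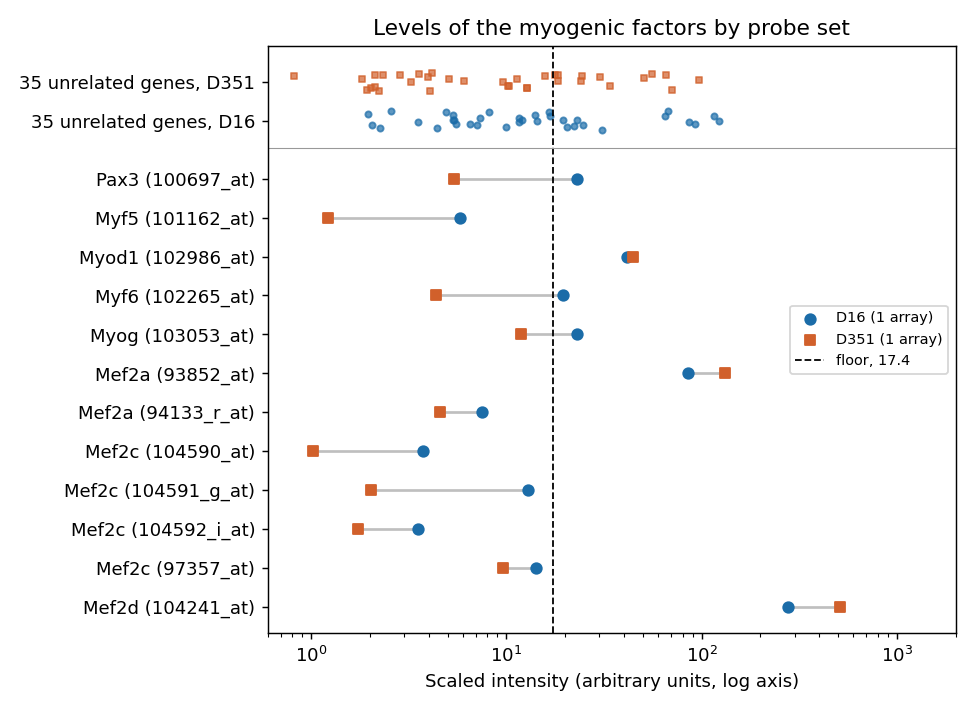
Scaled intensity (log axis) of the 12 probe sets of the myogenic factors in D16 (circles) and D351 (squares), 1 array each, with the floor of 17.4 as a dashed line and 35 genes of unrelated tissues above. Mef2d lies to the right of all unrelated genes in both clones, Myod1 lies among them, and 6 of the 12 probe sets lie left of the floor in both clones.

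Among the factors that commit cells to muscle, Myod1 measured 41.7 in D16 and 44.7 in D351. Its log2 ratio (D351 over D16) was 0.10, well inside the probe set spread. Of the 35 genes of unrelated tissues, 6 had an intensity at or above that of Myod1 in D16 and 5 in D351, so its level lay within the range of this background in both clones. Myf5 measured 5.80 in D16 and 1.22 in D351, below the floor in both. It lies beside Myf6 on chromosome 10 in the mouse.

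Of the later factors, Myog, the gene of myogenin, measured 23.1 in D16 and 11.9 in D351, at least 1.33-fold higher in D16. Myf6, also called MRF4, measured 19.6 in D16 and 4.38 in D351, at least 1.12-fold higher in D16. Both stood above the floor in D16 by a small margin. Of the 35 genes of unrelated tissues, 9 were at or above the D16 level of Myog and 12 at or above that of Myf6.

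Pax3 measured 23.1 in D16 and 5.39 in D351, at least 1.33-fold higher in D16. Of the 35 unrelated genes, 9 were at or above its D16 level. Low intensities were in general somewhat higher in D16: of the 1608 probe sets with a mean level from 10 to 20, 58.1% were higher there, with a median log2 ratio without a floor of -0.23; with the hybridization control scaling 43.5% were, with a median of 0.16. Without a floor, Pax3, Myf6 and Myog had log2 ratios of -2.10, -2.16 and -0.96, and 7.52%, 7.03% and 26.1% of those probe sets had a ratio at or below each of these. Of the 35 unrelated genes, 25 were higher in D16 without a floor, as were 5 of the 8 members. The part of this general difference in the values of Pax3, Myf6 and Myog was not tested.

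Pax3 is also a gene of the neural crest, and markers of neural crest and melanocytes were measured beside it. Of 8 on the array, 2 reached the floor in each clone, Sox10 and Tfap2a in D16 and Sox10 and Dct in D351. Below it in both clones were 62.5% of the 8, against 26.1% of all genes and 57.1% of the genes of unrelated tissues. The summed level of the 8 was 207 in D16 and 102 in D351. The crest factor gene Tfap2a carried most of that difference, at 121 in D16 and 15.2 in D351, at least 6.97-fold higher in D16, and its other probe set was at least 2.85-fold higher there. Sox10, a master regulator of crest-derived glia and pigment cells, measured 35.8 and 27.3, with its other probe set below the floor. Dct, a melanocyte marker outside the naming rule, measured 9.43 in D16 and 19.5 in D351, at least 1.12-fold higher in D351. Foxd3, Ednrb and Mitf, which mark crest and pigment cells, lay below the floor in both clones. The part of these markers in the Pax3 value was not tested.

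Within the MEF2 family, Mef2d and Mef2a were read in both clones and Mef2c in neither. Mef2d had an intensity of 277 in D16 and 515 in D351 by its single probe set, 1.86-fold higher in D351, with a log2 ratio of 0.90. None of the 35 unrelated genes reached it in either clone. Of the 6101 genes with a ratio, 12.7% had a log2 ratio at least as high, and at mean levels of 200 to 1000 the SD between probe sets was 0.55 (238 genes). Mef2a had 85.6 in D16 and 132 in D351, 1.54-fold higher in D351, with a log2 ratio of 0.62. This probe set was matched or exceeded by 4 of the 35 unrelated genes in D16 and by 0 in D351. The SD between probe sets was 0.50 at mean levels of 60 to 200 (397 genes), and 20.1% of the genes had a log2 ratio at least as high. The other probe set of Mef2a lay below the floor in both clones, at 7.47 and 4.58, so the ratio rests on 1 probe set.

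Mef2c, the family member with the strongest known part in embryonic heart and skeletal muscle, lay below the floor in both clones by all 4 of its probe sets. In D16 they measured 14.1, 13.0, 3.73 and 3.54, and in D351, in the same order, 9.57, 2.04, 1.02 and 1.73. All 4 values were higher in D16, but below the limit at which a level was read. Mef2b, the remaining MEF2 gene, which is not among the members and was named after its values were seen, measured 35.6 and 28.5, with its other probe set below the floor.

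Mef2d, with 1 probe set above every floor tried, could not be moved by the floors or probe set rules. A pseudocount of 16 in place of the floor, which cannot turn a direction, gave it a log2 ratio of 0.86. Its direction held under each scaling, with log2 ratios from 0.84 to 1.29. The highest came from scaling the arrays on their hybridization controls, which also moved the median of all genes to 0.34. Mef2a, whose ratio the floors likewise could not move, kept its direction except with the mean over its probe sets, where its log2 ratio was -0.043. That mean was taken before the floor, so it includes the levels of the other Mef2a probe set, which lay below the floor in both clones. Under the scaling on the hybridization controls, both genes passed 2-fold, with log2 ratios of 1.01 and 1.29. With the floor at the 25th percentile, an intensity of 7.27, the bounds towards D16 became at least 3.18-fold for Pax3 and at least 2.69-fold for Myf6, and Myog had a measured ratio of 1.94. With the floor at the 60th percentile, an intensity of 53.3, Myod1 lay below it in both clones.

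**Figure D2:**
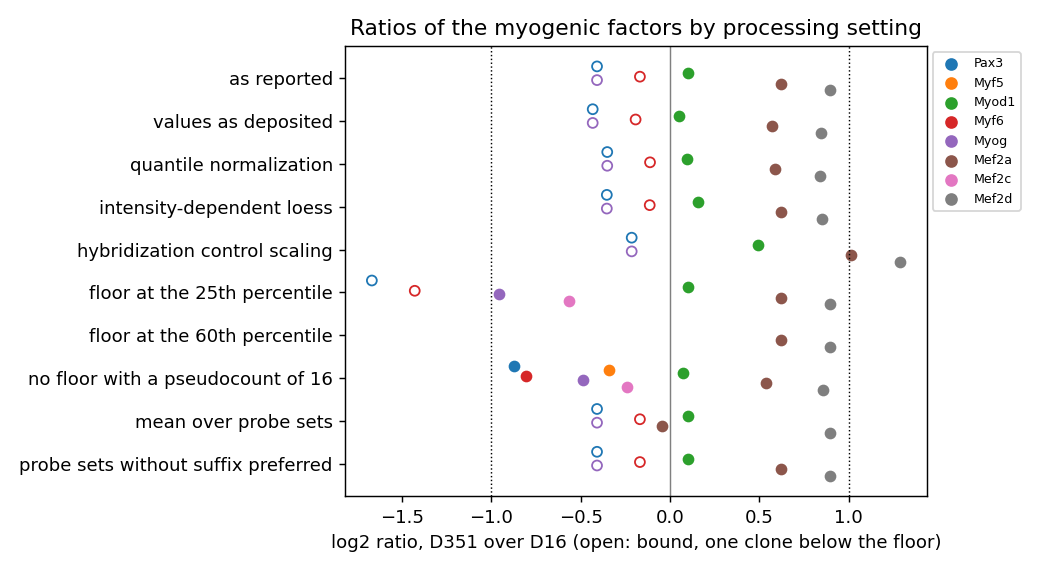
The log2 ratio of D351 over D16 (horizontal axis) for the members that have a ratio, under each processing setting (rows), with open symbols for bounds and dotted lines at 2-fold. Mef2d stays between 0.84 and 1.29, and Pax3 and Myf6 move past 2-fold towards D16 with the lower floor.

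In the mouse, the Myog promoter is known to be activated through an E-box, read by the muscle regulatory factors, and through a MEF2 site. It is printed because these are the motifs that the other members read, with the promoters of Mef2d and Mef2a, the members that were higher in D351. Each is the 250 bases before the gene's start in RefSeq's table (GRCm38.p6), on the gene's strand. Capitals mark matches to the E-box CANNTG and to a MEF2 core, TANNNNTA with A or T at each N, both of which read the same on the 2 strands. Myog lies at chr1:134289754-134290003 on the plus strand, Mef2d at chr3:88142122-88142371 on the plus strand and Mef2a at chr7:67372859-67373108 on the minus strand.
Myog: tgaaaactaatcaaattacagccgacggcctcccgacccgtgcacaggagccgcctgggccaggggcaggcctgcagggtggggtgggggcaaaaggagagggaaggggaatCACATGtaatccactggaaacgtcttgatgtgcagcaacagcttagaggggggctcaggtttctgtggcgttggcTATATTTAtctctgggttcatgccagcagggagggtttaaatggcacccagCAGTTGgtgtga
Mef2d: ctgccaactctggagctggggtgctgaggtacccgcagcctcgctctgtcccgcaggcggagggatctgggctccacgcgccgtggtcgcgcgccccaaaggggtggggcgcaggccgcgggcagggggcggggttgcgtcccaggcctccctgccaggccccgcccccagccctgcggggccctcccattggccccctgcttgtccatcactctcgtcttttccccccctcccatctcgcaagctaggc
Mef2a: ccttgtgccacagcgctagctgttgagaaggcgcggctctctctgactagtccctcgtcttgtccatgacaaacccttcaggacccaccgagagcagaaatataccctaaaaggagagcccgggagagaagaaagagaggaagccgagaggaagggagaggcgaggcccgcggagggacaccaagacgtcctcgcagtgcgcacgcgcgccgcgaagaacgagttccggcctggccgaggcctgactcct

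The Myog window held 2 E-box matches, CACATG from 138 to 133 bases before the start and CAGTTG from 12 to 7 bases before it, and 1 MEF2 core, TATATTTA, from 63 to 56 bases before it. The Mef2d and Mef2a windows held neither motif. RefSeq's table matched 6 members, Pax7 among them, with 8 windows, several of them of Mef2c. Of the 8 windows, 3 held CANNTG and 2 the MEF2 core, in Myog and Mef2c. The narrower E-box CAGCTG, which is contained in CANNTG, was in 0 of the 8. Among 32851 promoter windows of the same length, 66.2% held CANNTG, 13% CAGCTG and 8.56% the MEF2 core. A match is a description of the letters and not a bound site. Myod1, Myf6 and Pax3 were not among the matches.

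Several genes that control MEF2 activity were higher in D351. Of 19 on the array, 17 had a ratio. Past 2-fold were 5 of them towards D351 and 0 towards D16, against 10.6% and 8.83% of all genes. The list was chosen with earlier results of these data known, and a link to the level of Mef2d was not tested. The list median was 0.22. The MAP kinase gene Mapk7 (ERK5), whose product phosphorylates and activates MEF2 proteins, measured 17.6 in D16 and 68.7 in D351, 3.91-fold higher, but its D16 level lay at the floor. Mapk14 (p38 alpha), which also phosphorylates MEF2 proteins, measured 67.9 and 236, 3.47-fold higher, by a probe set of a kind that can match other genes. Kat2b, an acetyltransferase that acts with MyoD, measured 60.6 and 184, 3.03-fold higher, with its other probe set below the floor.

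A repressor of MEF2 was among them. Hdac5, a class II deacetylase that binds and represses MEF2 proteins, measured 218 in D16 and 471 in D351, 2.16-fold higher, while Hdac7, of the same class, measured 361 and 387. Nfatc3, a calcineurin-dependent factor, was below the floor in D16 and measured 42.5 in D351, at least 2.44-fold higher, with its other probe set below the floor in both. Members of the list thus include activators and a repressor. Scaling on the hybridization controls gave 6 genes of the list past 2-fold towards D351 and 0 towards D16. Over all genes that scaling gave 1214 and 250, where the main scaling gave 646 and 539.

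Of the E protein partners of the muscle regulatory factors, all 3 reached the floor in the 2 clones. Tcf4 (E2-2) measured 345 in D16 and 173 in D351, 2.00-fold higher in D16. Tcf12 (HEB) measured 253 and 395, a log2 ratio of 0.64, by a probe set of a kind that can match other genes. Tcf3 (E2A), outside the naming rule, measured 54.4 and 50.6. The partners thus differed in direction between the clones. Past 2-fold were 1 of 3 towards D16 and 0 towards D351, against 8.83% and 10.6% of all genes.

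Inhibitors of these dimers and repressors at E-boxes were well represented. Of 16 on the array, 14 had a ratio, with a median of 0.07. Towards D16, 2 passed 2-fold, against 8.83% of all genes, and 0 towards D351, against 10.6%. These 2 were the Id genes Id1 and Id2: Id1 measured 285 in D16 and 115 in D351, 2.48-fold higher in D16, and Id2 measured 163 and 64.9, 2.51-fold higher. Scaling on the hybridization controls left 0 genes of this list, and 0 E proteins, past 2-fold towards D16. The log2 ratios were then -0.92 for Id1, -0.93 for Id2 and -0.61 for Tcf4. The same scaling put 2 genes of the list and 1 E protein past 2-fold towards D351. Over all genes it gave 1214 towards D351 and 250 towards D16, where the main scaling gave 646 and 539. By the mean of the 2 clones, the highest intensities were those of the zinc finger repressor genes Snai2, which measured 582 and 761, and Zeb1, which measured 245 and 387. A second probe set of Zeb1 was below the floor in D351 and near it in D16, and with the mean over both the log2 ratio of Zeb1 turned from 0.66 to -0.65. That mean was taken before the floor, so it includes the D351 level that was not read.

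**Figure D3:**
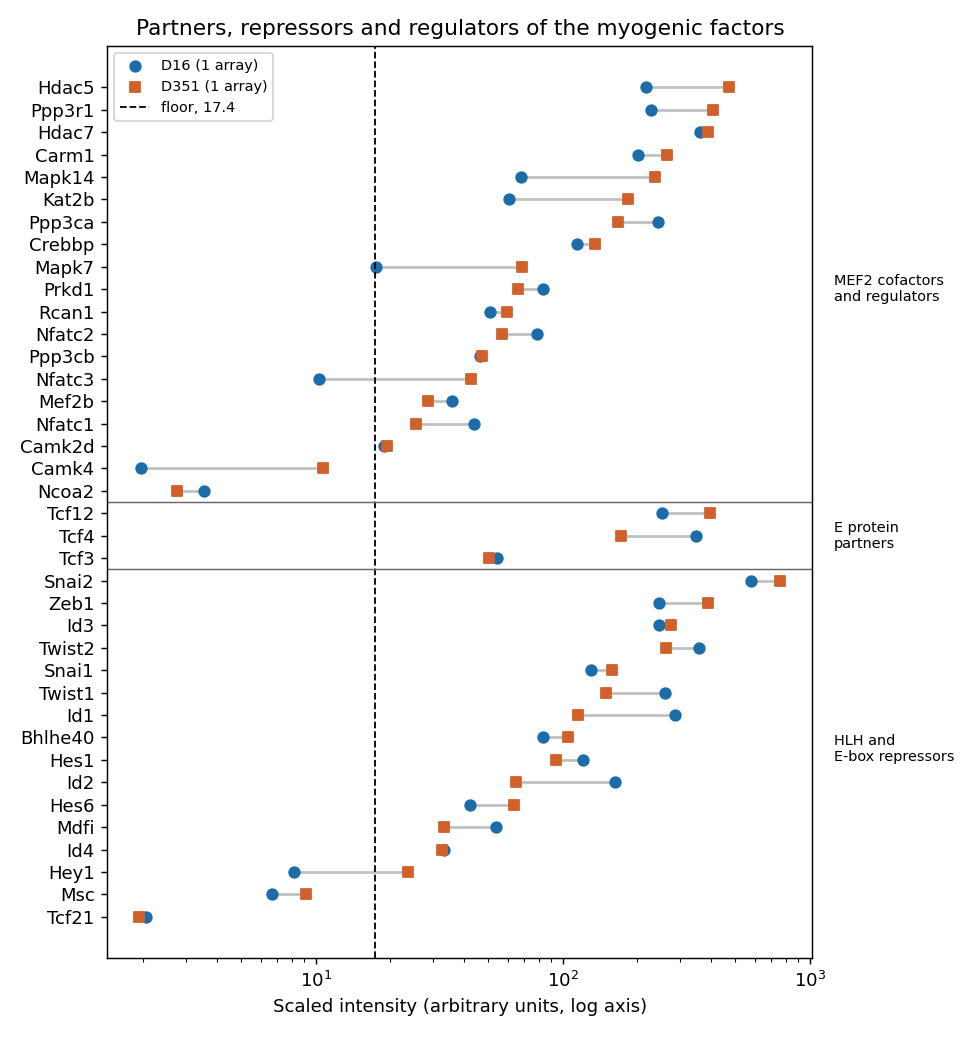
Scaled intensity (log axis) of genes that control MEF2 proteins, of E protein partners and of HLH and E-box repressors in D16 (circles) and D351 (squares), 1 array each; only the points in a row are comparable. Mapk14, Kat2b and Hdac5 lie further right in D351, and Id1, Id2 and Tcf4 further right in D16.

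Upstream factors of the somite and of premyogenic cells were in many cases below the floor. Of 24 on the array, 10 were below it in both clones (41.7%), against 26.1% of all genes and 57.1% of the genes of unrelated tissues. The other 14 had a ratio, with a median of -0.18. Of these 14, 2 passed 2-fold towards D351 and 1 towards D16, against 10.6% and 8.83% of all genes. On the values as deposited these counts were 1 and 2, and with the floor at the 25th percentile 3 and 3. Six2, a homeobox gene of the family that acts upstream of the muscle regulatory factors, measured 43.7 in D16 and 15.2 in D351, at least 2.51-fold higher in D16. Six4, of the same family and a direct regulator of myogenic genes, measured 70.1 and 75.2, and its other probe sets gave log2 ratios of 0.79 and -0.27. In the other direction, Msx2, a homeobox gene that can hold back differentiation, measured 2.85 in D16 and 131 in D351, at least 7.54-fold higher, and the segmentation gene Mesp2 4.62 and 35.2, at least 2.02-fold higher. Foxc2, a forkhead gene of paraxial mesoderm and vessels, measured 100 and 78.6, and 31.2 and 29.3 by its other probe set.

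Genes that the muscle regulatory factors and MEF2 proteins switch on in differentiating muscle were in many cases below the floor. Of 54 such genes on the array, 25 were below the floor in both clones (46.3%), against 26.1% of all genes and 57.1% of the genes of unrelated tissues. Among these 25 were the embryonic myosin gene Myh3, the skeletal actin gene Acta1 and the creatine kinase gene Ckm, named after their values were seen, and the acetylcholine receptor gene Chrna1. Of the 29 genes with a ratio, 2 passed 2-fold towards D351 and 3 towards D16, against 10.6% and 8.83% of all genes. The list median was -0.44, where the 15 unrelated genes with a ratio had a median of -0.36. With the hybridization control scaling the medians were -0.04 and -0.10.

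The genes of this list past 2-fold belong to metabolism, the synapse and the cytoskeleton. Cox6a2, a muscle-specific subunit of cytochrome c oxidase, measured 406 in D16 and 23.5 in D351, 17.3-fold higher in D16, with the D351 level near the floor. Eno3, the muscle enolase, measured 908 and 97.6, 9.30-fold higher in D16. Rapsn, which clusters acetylcholine receptors, measured 48.4 and 20.1, 2.42-fold higher in D16, with the D351 level near the floor. With hybridization control scaling its log2 ratio went from -1.27 to -0.88, under 2-fold. Higher in D351 were Fhl1, a LIM protein of muscle, at 174 and 528, 3.02-fold, with 1 other probe set 3.21-fold higher and another below the floor, and Des, the intermediate filament gene of all muscle types, at 5.60 and 41.0, at least 2.36-fold.

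**Figure D4:**
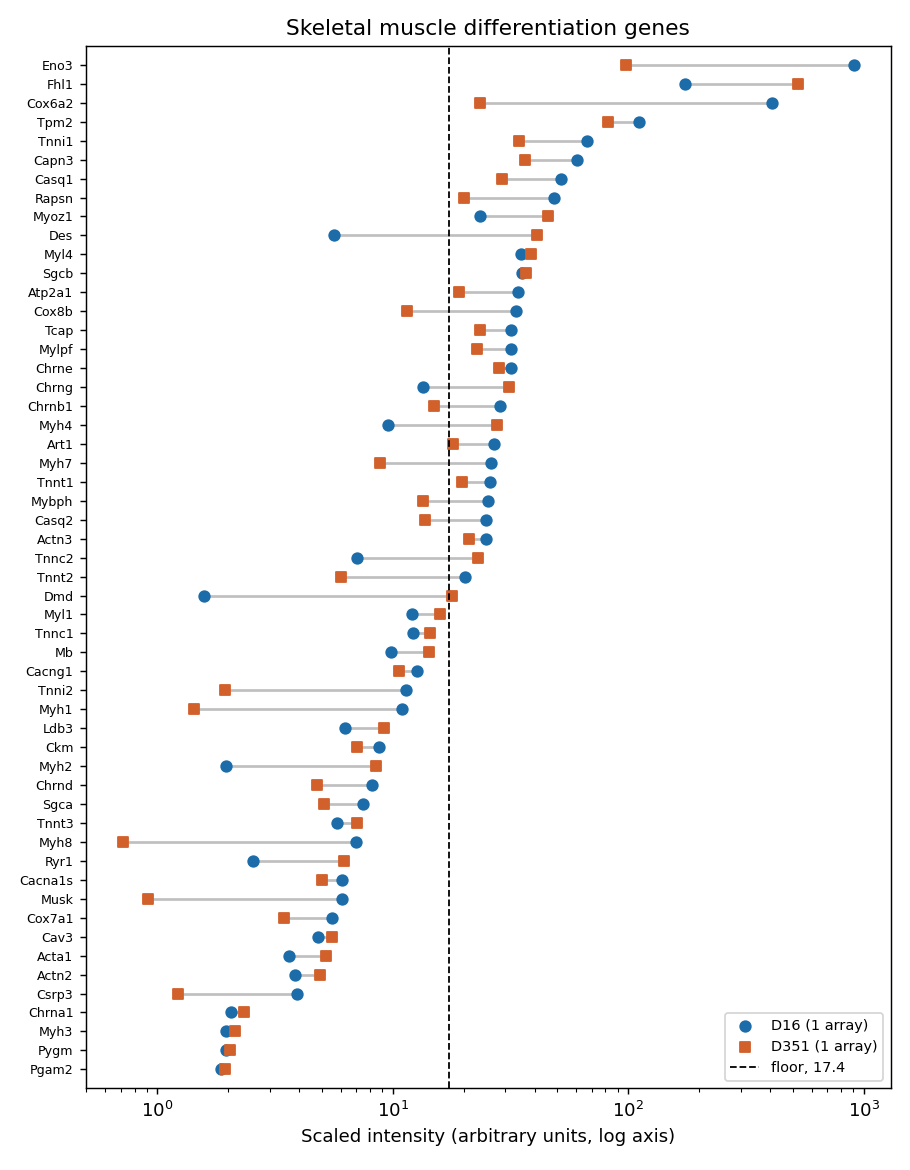
Scaled intensity (log axis) of 54 skeletal muscle differentiation genes in D16 (circles) and D351 (squares), 1 array each, ordered by their higher level; only the points in a row are comparable. Of the genes, 25 lie left of the floor of 17.4 in both clones, and Eno3 and Cox6a2 lie far right in D16.

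Markers of myoblasts and satellite cells gave no common pattern. Of the markers of skeletal myoblasts, Cdh15 (M-cadherin) and Chrna1 were below the floor in both clones, as was Myf5, Des was below it in D16, and Ncam1 and Myod1 were above it in both. Ncam1, an adhesion gene that many cell types use, measured 261 in D16 and 420 in D351, a log2 ratio of 0.69. Its other probe sets gave 0.31 and levels below the floor in both clones. With the mean over the probe sets, which includes those levels below the floor, its log2 ratio was 0.13. Over the list, 8 of 13 genes had a ratio, with a median of -0.05. In each clone 1 was at least 2-fold higher, against 10.6% of all genes in D351 and 8.83% in D16. Cd34, a surface gene of progenitors that satellite cells share, measured 475 in D16 and 6.72 in D351, at least 27.3-fold higher in D16. Its other probe set, at 167 and 7.63, was at least 9.61-fold higher there. Itm2a, which Pax3 is known to activate in the mouse, measured 2.36 and 78.0, at least 4.48-fold higher in D351. Vcam1, an adhesion gene, measured 377 and 369, and its further probe sets had log2 ratios of 0.83 and 0.61.

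Other muscle and mesodermal lineages were compared in the same way. Smooth muscle markers were higher in D351 in 11 of 11 genes with a ratio, with a median of 1.47. At least 2-fold higher were 7 of them, against 10.6% of all genes. The summed level of the list was 4428 in D16 and 9948 in D351. The largest ratios were those of Actg2 (10.8-fold), Cnn1 (at least 9.04-fold), Mylk (5.07-fold), Csrp1 (3.16-fold) and Tagln (2.93-fold). Those of Actg2, Cnn1 and Csrp1 came from probe sets of a kind that can match other genes; for Csrp1 a probe set of the usual kind was 3.67-fold higher, and for Actg2 and Cnn1 there was no other. Acta2 measured 939 in D16 and 1686 in D351, 1.79-fold higher in D351. Myh11 measured 2.16 and 48.2, at least 2.77-fold higher there, and Smtn 13.9 and 25.4, at least 1.46-fold. Brightest by the mean of the 2 clones were Tpm1 and Vcl, at log2 ratios of 0.81 and 0.47, the other probe set of Vcl giving 0.85. Of 10 fibroblast markers, 5 passed 2-fold towards D351 and 1, S100a4, towards D16 (4.42-fold), against 10.6% and 8.83% of all genes. At any size, 4 of the 10 were higher in D16, Thy1 and Pdgfra among them. Thy1 measured 1534 in D16 and 1041 in D351, a log2 ratio of -0.56. Pdgfra measured 762 and 714, a log2 ratio of -0.09. Another probe set of Pdgfra was 2.91-fold higher in D16, and the remaining probe set lay below the floor in both clones. Lum (4.02-fold), Postn (2.94-fold), Col3a1 (2.54-fold, 2.92-fold and 2.39-fold by its others) and Col1a1 (2.45-fold, 1.33-fold by its other probe set) led those higher in D351, and the probe sets of Col1a2 disagreed, with log2 ratios of 1.02 and -0.62. Dcn measured 437 in D16 and 669 in D351, 1.53-fold higher in D351. With the mean over probe sets, 3 genes of the list passed 2-fold towards D351 and 2 towards D16. The list had a summed level of 9163 in D16 and 12907 in D351. Bright probe sets weigh most in such a sum: Col1a1 measured 1538 in D16 and 3771 in D351, and Col1a2 1693 and 3438. The part of smooth muscle and fibroblast genes in the higher levels of Mef2d and Mef2a in D351 was not tested. Of 7 cardiac transcription factor genes, 3 had a ratio. Gata4 was 2.43-fold higher in D16 and Gata6 at least 2.89-fold higher in D351. This is 1 gene in each direction, against 8.83% of all genes towards D16 and 10.6% towards D351. With hybridization control scaling the log2 ratio of Gata4 went from -1.28 to -0.89. Hand1 measured 51.5 and 43.1, and 20.2 and 18.7 by its other probe set. For Gata6, both other probe sets lay below the floor in the 2 clones.

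Markers of blood and vessel cells were in many cases below the floor. Of 9 haematopoietic markers, 5 were below it in both clones (55.6%), Ptprc and Itgam among them. That share was 26.1% over all genes and 57.1% over the genes of unrelated tissues. The summed level of the 9 was 128 in D16 and 123 in D351. Hba-a1, an alpha globin gene, measured 30.1 and 13.5, and Laptm5, a leukocyte gene, 41.6 and 28.3, with its other probe set below the floor. Spi1 measured 26.6 in D16 and 11.2 in D351, at least 1.53-fold higher in D16. At least 2-fold higher in D351 was 1 of the 9, Cd68 (at least 2.12-fold, with its other probe set below the floor in both), and 0 in D16. Over all genes these shares were 10.6% and 8.83%. Of 9 endothelial markers, 6 were below the floor in both (66.7%), among them Cdh5, Kdr, Tek, Tie1 and Vwf, and the summed level was 203 and 223. Here too 1 gene was at least 2-fold higher in D351, Flt1, at least 3.80-fold, and at least 2.74-fold by its other probe set. Eng, an endothelial and mesenchymal receptor gene, measured 128 and 123. Pecam1 was read in both clones, at 30.8 in D16 and 20.3 in D351.

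**Figure D5:**
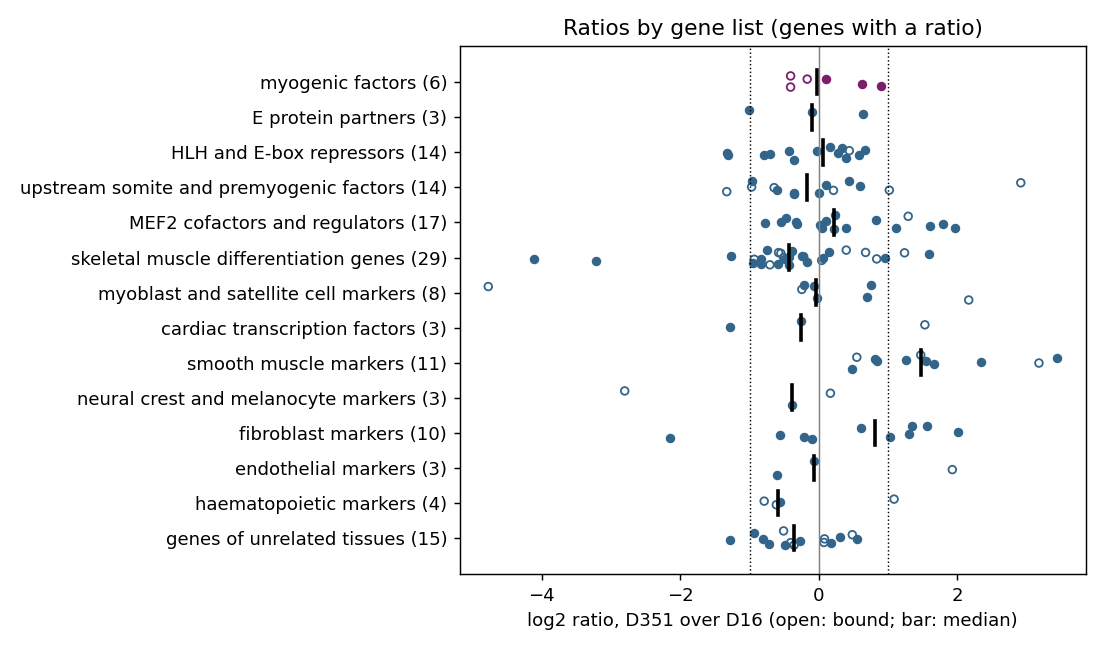
The log2 ratio of D351 over D16 for each gene with a ratio, by list, with the number of genes in brackets, open symbols for bounds, a bar at the median and dotted lines at 2-fold. The 6 myogenic factors lie inside the 2-fold lines, 3 of them as lower bounds that pass these lines for Pax3 and Myf6 with the lower floor, and the smooth muscle markers have a median of 1.47.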

How the data were processed

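The authors deposited 1 intensity value per probe set and array on a linear scale; the software, background method and genome build were not given in the sources used here. The 2% trimmed mean was 100.1 in both columns, which points to a common scaling target. The platform annotation gave 10833 of the 12422 non-control probe sets 1 symbol (10817 updated by gene number to RefSeq's GRCm38.p6), gave 396 several and gave 1193 none. It describes the second version of the U74A array named in the labels.

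Intensities were multiplied by 0.983 (D16) and 1.02 (D351), values below the floor were set to it, and log2 ratios of D351 over D16 were taken. The brightest probe set, by mean level, stood for a gene, and other probe sets are given for the named genes above the floor that had them. With 1 array a clone the number of arrays limits the precision, no test was run, and sizes of 2-fold or more were counted. Named are all members, for each of 13 gene lists the 5 largest ratios past 2-fold and the 2 brightest genes, and fixed cell type markers; others are marked. Members and lists were chosen with earlier results of these data known. Functions were checked on simulated arrays. Python 3.11.15, numpy 2.4.6, pandas 2.3.3, scipy 1.17.1, statsmodels 0.14.6 and matplotlib 3.10.9 were used.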

Additional observations from a re-analysis of the deposited data

How the results depend on the processing

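No paired analysis was possible because neither clone had more than 1 array, so no replicate could be left out either. Alternatives covered the scaling, the floor, the probe set rule and the size counted. The mean over probe sets was taken on log2 levels before the floor was applied, so levels below the floor entered it. Over all genes, 646 passed 2-fold towards D351 and 539 towards D16, so 54.5% of these lay towards D351. Scaling on the hybridization controls gave 1214 and 250 (82.9%). They were 857 and 852 with the floor at the 25th percentile, 406 and 325 with it at the 60th, 1287 and 1279 at 1.5-fold and 253 and 159 at 3-fold.

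Of 49 ratios of members under the alternatives, 44 moved by less than the probe set SD. Some of these 44 could not move. The probe set rules leave a gene with a single probe set unchanged, and the floors leave a gene above them in both clones unchanged. The other 5 were, with the floor at the 25th percentile, -1.43 for Myf6, -0.96 for Myog and -1.67 for Pax3 (log2); with a pseudocount of 16 and no floor, -0.80 for Myf6; and with the mean over probe sets, -0.043 for Mef2a. Members 2-fold or more higher in D351 numbered 2 with hybridization control scaling, and those higher in D16 numbered 2 with the floor at the 25th percentile; at 1.5-fold, 2 were higher in D351. At or above the floor in D351 were 5 members with the floor at the 25th percentile, and in D16 2 with it at the 60th.

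Genes that control MEF2 higher in D351 numbered 3 with the floor at the 60th percentile and 3 at 3-fold; at 1.5-fold, 1 was higher in D16. Skeletal muscle differentiation genes higher in D351 numbered 4 with hybridization control scaling, 6 with the floor at the 25th percentile, 1 with it at the 60th, 1 with the mean over probe sets, 5 at 1.5-fold and 1 at 3-fold. Those higher in D16 numbered 6 with the floor at the 25th percentile and 9 at 1.5-fold. The cause was not tested beyond the settings themselves. Of 451 ratios of other named genes, some of which likewise could not move, 31 moved by more than the probe set SD. Of the 451, 8 changed sign, 0 of them from a ratio of 2-fold or more: 5 with hybridization control scaling (Eng, Foxc2, Hand1, Sox10 and Vcam1), 2 with the mean over probe sets (Vcam1 and Zeb1) and 1 with quantile normalization (Hdac7).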
